A study of Homo sapiens with 13 samples.

Results

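BTG1, BTG2, BTG3, TOB1 and TOB2 make up the BTG and TOB antiproliferative family as it was followed here, 5 of 14575 genes and 59 of 211765 3' ends with reads. The genes were chosen by name. BTG3 in addition was selected on its own readout, 0 reads in every wild-type library, so its level is described and not tested. Poly(A) RNA was measured by 3' READS, in which each read marks the 3' end of a polyadenylated RNA, in 5 wild-type and 4 R749H libraries. The cells were HEK293 Flp-in T-REx, a human embryonic kidney line, with an integrated pcDNA5 plasmid for Rpb1, the largest subunit of Pol II. This Rpb1 was α-amanitin resistant and was either wild-type or carried R749H, a change that slows elongation. In both groups it carried an Avitag per the sample titles, while the source names differ. In both groups the cells grew in hygromycin and blasticidin, Rpb1 was induced with 2 µg/ml doxycycline for 24 hr per the labels, and 2.5 µg/ml α-amanitin followed for 42 hr to inactivate the endogenous Pol II. The paper gives a shorter induction for these libraries than the labels do, with doxycycline kept on during α-amanitin. The sources used here do not say whether either cell line is a single clone, so an effect of R749H on a gene cannot be told apart from another difference between the lines.

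BTG and TOB proteins share an amino-terminal BTG domain that binds the CAF1 deadenylases CNOT7 and CNOT8 of the CCR4-NOT complex, which shortens poly(A) tails. BTG1 and BTG2 are close paralogs that also bind the arginine methyltransferase PRMT1. BTG3 is a more distant member, and TOB1 and TOB2 have a long carboxy-terminal part that binds the poly(A) binding protein PABPC1. BTG2 is a target of p53 and an immediate early gene of growth factor signaling, and the family is known for slowing the cell cycle.

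The 3' end that each mRNA used most is shown by the last 30 nt before cleavage, because the reads of the family were counted there. Sequences are from GRCh37 (hg19), sense strand, 5' to 3', with the poly(A) signal in capitals. The distance in each name is in nt from the stop codon.
BTG1 +953, chr12:92536903-92536932, minus strand: atAATAAAtcgtttcttatcttggcatttt
BTG1 +948, chr12:92536908-92536937, minus strand: tctctatAATAAAtcgtttcttatcttggc
BTG2 +2161, chr1:203278698-203278727, plus strand: tttgttactttAATAAAaatgtagtaggat
BTG3 +439, chr21:18965972-18966001, minus strand: agttgcaAATAAAaaatagtttgaggcatg
TOB1 +752, chr17:48939589-48939618, minus strand: attaagtttgtATTAAAattctttaaaatt
TOB2 +2816, chr22:41829499-41829528, minus strand: taagtttgtATTAAAagcatgatacataat
Every end shown lies in an annotated UTR and within 7 nt of an annotated transcript end. The 3 BTG genes carry AATAAA and both TOB genes carry ATTAAA. These letters were searched on the sense strand, with overlaps allowed, in the 30 nt before the most used end of the 7872 genes that averaged 20 or more reads in a library. AATAAA stood in 65.3% of these windows, ATTAAA in 17.96% and either in 81.5%. Counted from the cleavage position, the signal began at 28 nt for BTG1 +953, 23 nt for BTG1 +948 and BTG3, 21 nt for TOB2 and 19 nt for BTG2 and TOB1. The windows of TOB1 and TOB2 share the 16 nt run taagtttgtATTAAAa, which none of the 7872 windows holds, neither TOB gene being among those 7872. Other pairs of members share runs of 5 to 8 nt. Each 30 nt window occurs 1 time in the genome, although the annotation also lists the processed copies BTG1P1, BTG3P1 and TOB2P1.

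The libraries held 2479851 to 10135014 reads in wild-type and 3863468 to 6475987 in R749H. R749H replicate 3 stood apart, with 41033 ends, 6.60% of which rested on 1 read, while this share was 30.045% to 36.2% elsewhere. VIM, KRT8, KRT18 and LIN28B, which HEK293 cells express, were present, although VIM was lower (log2 difference -0.66, adjusted p = 0.0194, limma) and LIN28B higher (0.65, adjusted p = 0.0233, limma) in R749H. NEFM had 2 reads and NEFL had no entry. Among markers of other cell types, PTPRC, HBB, COL1A2 and DCN had no entry, CD3E and ALB had 3 reads each, COL1A1 had 11 and APOA1, a liver gene, had 66, with 2.77 RPM ± 1.43 in R749H and 0.611 RPM ± 0.473 in wild-type. The part of these differences in the levels of the family was not tested. Levels are in RPM, the reads of a gene per 1 M reads of its library, with TMM factors. On this scale the median log2 difference of all tested genes was -0.07 and 1037 genes were called higher and 1228 lower, whereas without factors the median was -0.38 and the split was 460 to 2482.

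The composition of the family in the 2 lines is described and not tested, because BTG3 was chosen for its 0 wild-type reads. Its reads enter the R749H total alone, which lowers the percentages of the other members there and raises the sum. In wild-type cells BTG1 held 84.7% ± 2.31 (SD, n = 5) of the family's reads, BTG2 12.3% ± 2.03, TOB2 2.26% ± 1.89 and TOB1 0.728% ± 0.474. In R749H cells BTG3 led with 62.5% ± 4.50 (SD, n = 4), followed by BTG2 with 18.2% ± 0.823, BTG1 with 15.9% ± 3.26, TOB2 with 3.17% ± 1.70 and TOB1 with 0.190% ± 0.248. The order BTG1, BTG2, TOB2 held in every wild-type library, and TOB1 was below TOB2 in each. In R749H, BTG2 was above BTG1 in replicates 1, 2 and 4 and below it in replicate 3, the library that stood apart. Summed over the 5 genes, the level was 91.5 RPM ± 21.6 in wild-type and 193.7 RPM ± 27.2 in R749H, and without BTG3 the R749H sum was 72.1 RPM ± 7.68.

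**Figure D1:**
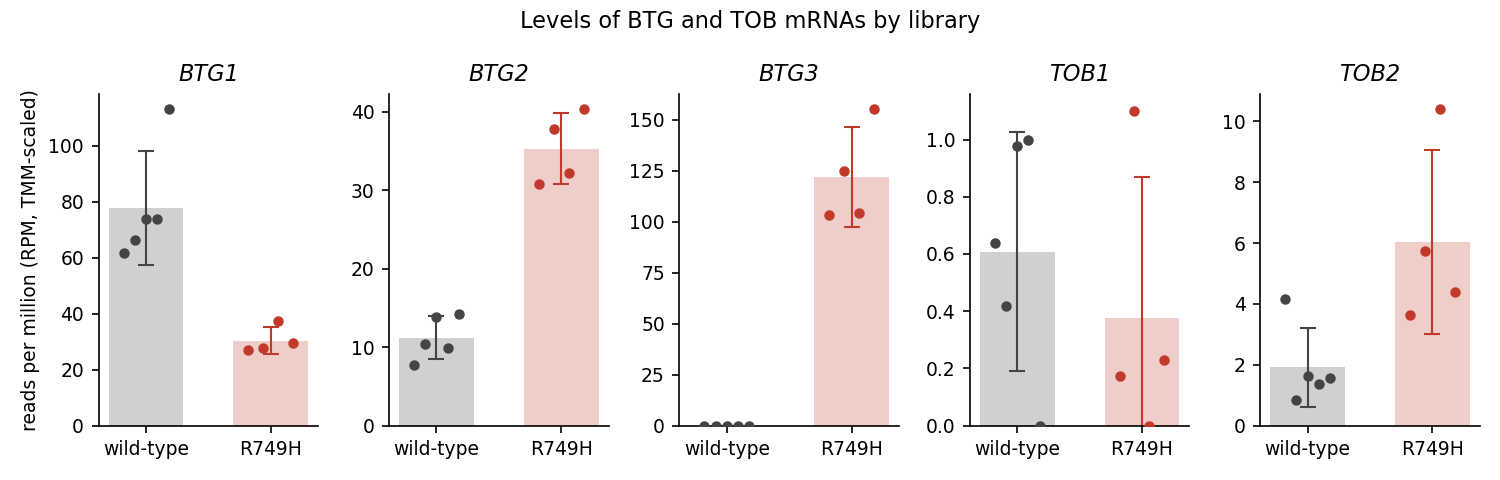
Levels of the 5 mRNAs, in RPM on a linear axis from 0 that differs between panels. Points are libraries (5 wild-type, 4 R749H), bars are means and error bars are SD, cut at 0. BTG1 was lower and BTG2 higher in all R749H libraries, BTG3 had 0 reads in all wild-type libraries, and the groups overlapped for TOB1 and TOB2.

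BTG1 and BTG2 moved in opposite directions. BTG1 stood at 61.7, 66.4, 73.9, 73.9 and 113 RPM in wild-type replicates 1 to 5 and at 27.0, 27.7, 37.3 and 29.5 RPM in R749H replicates 1 to 4. All R749H libraries were below all wild-type libraries, and wild-type replicate 5 was the highest. The log2 difference was -1.33 ± 0.20 (SE), or 2.52-fold lower, with an adjusted p of 0.00033 (limma, Benjamini-Hochberg). BTG2 stood at 7.68, 10.4, 13.9, 9.92 and 14.2 RPM in wild-type and at 30.8, 37.8, 32.2 and 40.3 RPM in R749H. Here all R749H libraries were above all wild-type libraries. Its log2 difference was 1.67 ± 0.23 (SE), or 3.19-fold higher, with an adjusted p of 0.000132 (limma). Levels that did not overlap between the groups, as for BTG1 and BTG2, were found for 19.9% of the 9495 genes tested.

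TOB2 rose and TOB1 was too rare to test. TOB2 stood at 4.16, 0.835, 1.63, 1.37 and 1.57 RPM in wild-type and at 3.65, 5.75, 10.4 and 4.38 RPM in R749H. The groups overlapped in a single library, since wild-type replicate 1 was above R749H replicate 1. The log2 difference was 1.69 ± 0.48 (SE) with an adjusted p of 0.0174 (limma), and 2.01 without wild-type replicate 1. Behind these levels are 4 to 15 reads in each wild-type and 19 to 39 reads in each R749H library. TOB2 passed the filter on low counts through its R749H libraries, where it was higher. Without this filter its log2 difference was 1.71 with an adjusted p of 0.0287 (limma). TOB1 had 2, 2, 6, 11 and 0 reads in wild-type and 1, 4, 0 and 1 in R749H, so that the groups overlapped, and it failed the filter on low counts. In the libraries without a TOB1 read the limit that 0 reads allow, taken as 3 reads, was 0.525 RPM (wild-type replicate 5) and 0.799 RPM (R749H replicate 3). Fitted without the filter, the log2 difference of TOB1 was -0.73 ± 0.84 (SE), with a 95% interval of -2.50 to 1.04 and an adjusted p of 0.603 (limma), so that no difference was detectable at this depth.

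Of the 5 members, BTG1, BTG2 and TOB2 were tested and each passed the threshold of 0.05. TOB2 entered the test through its R749H reads, so its pass is weaker support than that of BTG1 and BTG2. Over all 9495 genes tested, 23.9% passed, 10.9% being higher and 12.9% lower in R749H. These libraries come from bulk cells, in which fewer cells that express a gene and less RNA per cell cannot be told apart.

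The balance of the paralogs was compared within each library, where no scaling between libraries enters. For each BTG2 read there were 8.04, 6.36, 5.33, 7.45 and 7.95 BTG1 reads in wild-type and 0.876, 0.732, 1.16 and 0.731 in R749H. Every wild-type ratio was above every R749H ratio, and the R749H ratios lay on both sides of equal reads. On the log2 scale the ratio was 2.80 ± 0.25 (SD, n = 5) in wild-type and -0.22 ± 0.31 (SD, n = 4) in R749H. The difference of -3.02 had a two-sided exact permutation p of 0.0159, the smallest that 5 against 4 libraries can give. Since neither level overlapped and the 2 genes moved in opposite directions, this separation follows from their levels and is no separate support. For TOB1 and TOB2 the ratio could not be formed in the libraries without TOB1 reads. With 0.5 reads added to each gene the log2 ratio of TOB1 to TOB2 was -1.73 ± 1.61 in wild-type and -4.03 ± 1.68 in R749H. That difference of -2.30 did not pass the test (exact two-sided permutation p = 0.111).

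**Figure D2:**
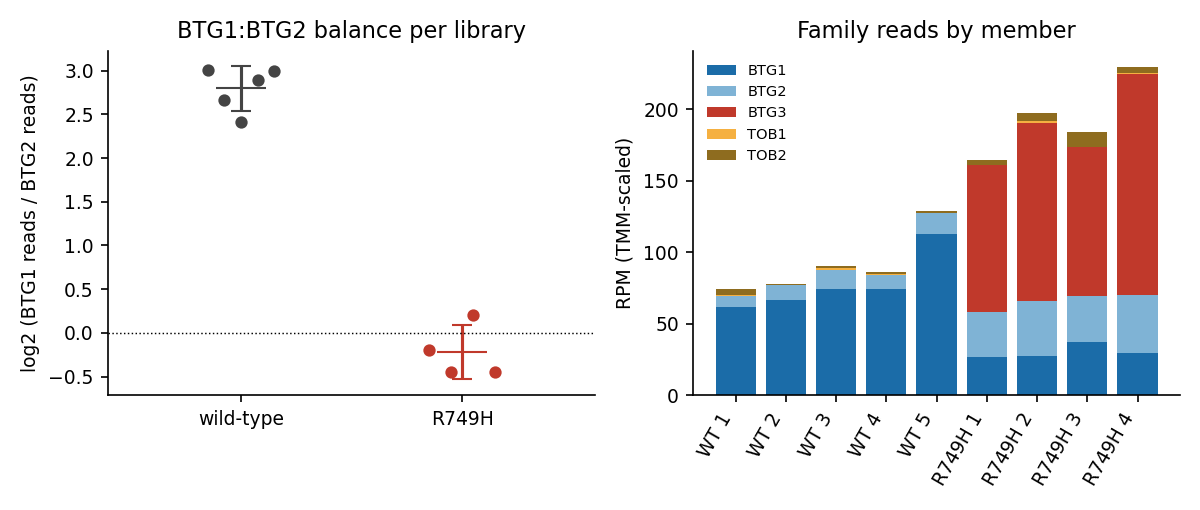
Left, log2 of BTG1 reads over BTG2 reads in each library, with the mean and SD. Right, stacked levels of the 5 genes in RPM for each library. The ratios of the 5 wild-type libraries lie between 2.41 and 3.01 and those of the 4 R749H libraries between -0.45 and 0.21, and BTG3 is the largest part of each R749H bar.

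BTG3 was seen in R749H cells alone. It had 591, 456, 391 and 671 reads in R749H replicates 1 to 4, or 103, 125, 104 and 155 RPM, and 0 reads in each of the 5 wild-type libraries. The groups did not overlap, which is what chose the gene. The R749H mean was 122 RPM ± 24.3 (SD, n = 4). Against a limit of 3 reads in each wild-type library, which averaged 0.575 RPM, the level was at least 212-fold higher in R749H. Without TMM factors it was at least 165-fold higher. This limit covers counting error only, since no molecular identifiers are named for these libraries. Each of the other 4 members had wild-type reads, from 21 for TOB1 to 2420 for BTG1.

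Genes with 0 reads in all wild-type and reads in all R749H libraries were 12 of 14576, or 0.0823%, counting a gene name on each chromosome separately. After BTG3 the 5 with the highest R749H level were ZIC1 with 3.91 RPM, C21orf91 with 3.32 RPM, CHRM3 with 3.17 RPM, ELMO2 with 1.74 RPM and CXADR with 1.47 RPM. BTG3 was above each of these in every R749H library. Like BTG3, C21orf91 and CXADR are on chromosome 21. In the opposite pattern, 0 reads in all R749H and reads in all wild-type libraries, there were 40 of the 14576 genes. None of these was on chromosome 21, but the share of all genes on that chromosome was not counted.

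BTG3 lay within a run of neighboring genes that had no wild-type reads. BTG3 occupies chr21:18965971-18985263 on the minus strand. Among genes with reads in any library, NRIP1, USP25, CXADR, BTG3 and C21orf91 follow each other, with stop codons spread over 2.83 Mb, and all 5 had 0 reads in all wild-type libraries, which held 28290351 reads together. In the 4 R749H libraries NRIP1, a nuclear receptor corepressor, had 4 reads in all. USP25, a deubiquitinase, had 11, CXADR, the coxsackievirus and adenovirus receptor, had 25, and C21orf91 had 55. Apart from BTG3 the run therefore held 95 R749H reads, and NRIP1 had reads in 2 and USP25 in 3 of the 4 libraries. It was the 1 run of 5 or more consecutive genes at 0 in all wild-type libraries. There was also 1 such run at 0 in all R749H libraries, of 8 genes with 21 wild-type reads in all. The cutoff of 5 equals the length of the wild-type run, which counts BTG3, itself chosen for its 0 wild-type reads. Runs of fewer genes were not counted, so the rarity of the run around BTG3 was not assessed.

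The genes on either side of the run were expressed in both lines. HSPA13, a chaperone of the Hsp70 family, had 511 wild-type and 174 R749H reads, and MRPL39, a mitochondrial ribosomal protein, had 796 and 723. Their stop codons are 11.2 Mb apart. MRPL39 was higher in R749H by 0.72 ± 0.26 (SE) on the log2 scale (limma, adjusted p = 0.0482), and JAM2, the next gene, had a log2 difference of -0.13 ± 0.26 (adjusted p = 0.746). The cause of the absence of wild-type reads over this stretch was not tested.

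**Figure D3:**
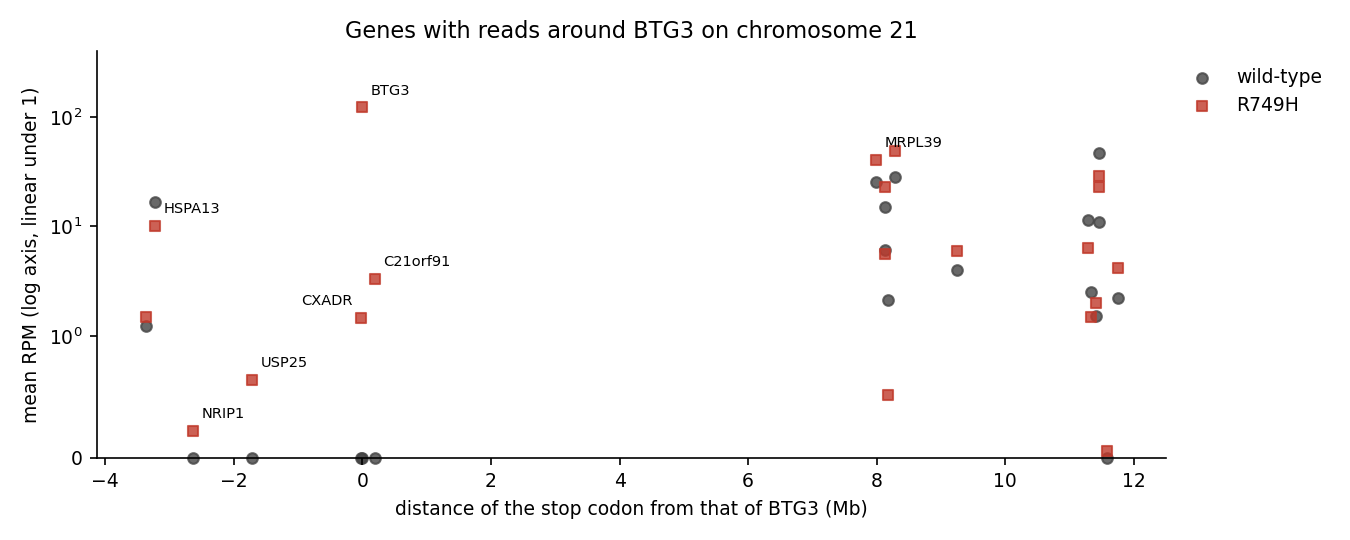
Mean level in RPM (log axis, linear under 1) of each gene with reads on chromosome 21 within 12 Mb of BTG3, against the distance of its stop codon from that of BTG3 in Mb. Circles are the mean of 5 wild-type and squares of 4 R749H libraries. NRIP1, USP25, CXADR, BTG3 and C21orf91 lie at 0 in wild-type, between HSPA13 and MRPL39, which have reads in both.

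Around the other members, single neighbors without wild-type reads were found for BTG2 and TOB1. Of the 6 nearest genes with reads, 2 near BTG2 (CHIT1 and ZBED6, with 4 and 6 R749H reads) and 1 near TOB1 (WFIKKN2, with 3 R749H reads) had 0 reads in all wild-type libraries, and none did near BTG1 or TOB2. Among the 3 nearest genes with reads on either side, those tested were 3 for BTG1, 3 for BTG2, 5 for TOB1 and 6 for TOB2, and in all 1, 0, 1 and 1 of them were called, each lower in R749H. Within 10 Mb of BTG1 on chromosome 12, 9 of 34 other tested genes were lower (26.5%) and 0 higher, with a median log2 difference of -0.20. Around TOB1 on chromosome 17, 55 of 163 were lower (33.7%) and 10 higher, with a median of -0.55. Around BTG2 9 of 60 were lower and 6 higher, and around TOB2 20 of 149 were lower and 16 higher. Beside the background of 12.9% lower, the shares around BTG1 and TOB1 were the larger ones, and their part in the levels of BTG1 and TOB1 was not tested.

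The positions of the 3' ends were compared next, because they did not enter the choice of the members. BTG1 had 18 ends, BTG2 23, BTG3 6, TOB1 2 and TOB2 10, and in each gene a single end dominated. BTG1 ended at +953 in 77.2%, 85.2%, 81.0%, 83.3% and 90.1% of its reads in wild-type and in 86.5%, 89.1%, 72.9% and 85.9% in R749H. The groups overlapped, and R749H replicate 3, the library that stood apart, was the lowest. The second BTG1 end, +948, took 11.8% ± 3.6 (SD, n = 5) in wild-type and 10.8% ± 5.58 (SD, n = 4) in R749H. BTG2 ended at +2161 in 87.5%, 94.0%, 90.6%, 92.7% and 86.4% of reads in wild-type and in 92.1%, 87.7%, 84.3% and 88.0% in R749H. These shares overlapped as well, and R749H replicate 3 was again the lowest.

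In the test of the share of the most used end, the log2 odds of BTG1 differed by 0.04 ± 0.38 (SE), with a 95% interval of -0.82 to 0.90 and an adjusted p of 0.978 (limma). For BTG2 the difference was -0.28 ± 0.31 (SE), with an interval of -0.99 to 0.43 and an adjusted p of 0.821 (limma). Neither passed, as was so for nearly all genes, since 3 of 7795 (0.0385%) were called, none of them in the family. Reads downstream of the pooled median position were 1.23% ± 0.841 of BTG1 reads in wild-type and 1.46% ± 1.51 in R749H. In BTG1 and BTG2 this position was the most used end itself, at +953 and +2161. The downstream share therefore counts only reads beyond that end, and a move to an upstream end such as BTG1 +948 leaves it unchanged. Its log2 odds differed for BTG1 by 0.24 ± 0.69 (SE), with an interval of -1.32 to 1.81 and an adjusted p of 0.934 (limma). For BTG2 the downstream share was 3.51% ± 2.23 in wild-type and 5.24% ± 2.72 in R749H, a difference of 0.56 ± 0.63 (SE) with an interval of -0.87 to 1.98 and an adjusted p of 0.793 (limma). In this measure 4 of 7684 genes (0.0521%) were called, again none of the family. At an unadjusted p under 0.05 there were 630 genes for the most used end and 729 for the downstream share. No difference in the 3' ends of BTG1 or BTG2 was detectable at this depth beyond the intervals given.

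BTG3 used a tight group of ends within 5 nt, seen in R749H alone. The end at +439 took 69.9%, 73.2%, 66.5% and 69.2% of its reads in R749H replicates 1 to 4. The end at +436 took 16.6% ± 1.79 (SD, n = 4) and the end at +441 9.59% ± 1.45. All 3 have AATAAA at the same place in the gene, so that the signal begins 20, 23 or 25 nt before cleavage. The minor end at +438 had 8, 12, 36 and 19 reads and was highest in R749H replicate 3. With no wild-type reads, no comparison of BTG3 ends between the lines could be made.

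TOB1 had 26 of 27 reads at +752. TOB2 spread its reads more evenly, with 64.7% ± 13.7 (SD, n = 5) at +2816 in wild-type and 67.1% ± 0.877 (SD, n = 4) in R749H, and with further ends at +2813 and +2819. These genes had too few reads for the main tests of 3' ends. Without a minimum number of reads the log2 odds of the most used TOB2 end differed by 0.19 ± 0.37 (SE), with an interval of -0.65 to 1.03 and an adjusted p of 0.905 (limma). The downstream share of TOB2 differed by -0.62 ± 0.70 (SE), with an interval of -2.21 to 0.98 and an adjusted p of 0.809 (limma).

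**Figure D4:**
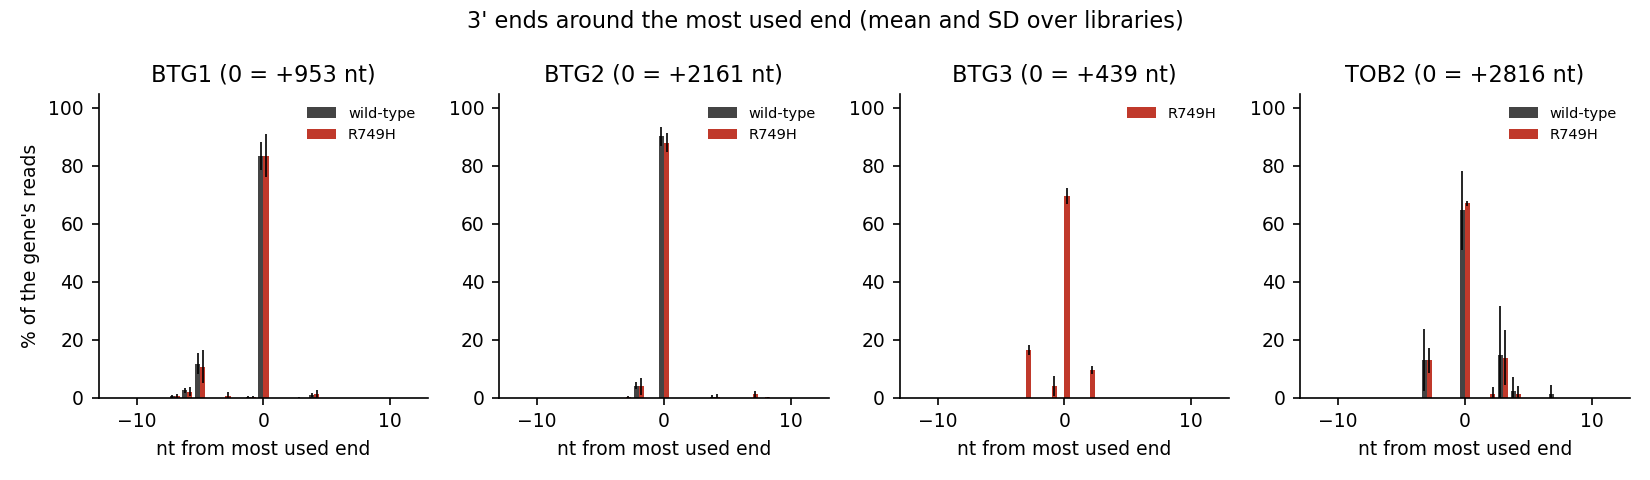
Percent of the reads of BTG1, BTG2, BTG3 and TOB2 at each 3' end, against the distance in nt from the most used end, whose distance from the stop codon is in the panel title. Bars are means over the libraries with reads and error lines are SD. BTG3 has bars for R749H alone, and in BTG1, BTG2 and TOB2 the same end leads in both lines, with 83.4% and 83.6% of BTG1 and 90.2% and 88.0% of BTG2 reads in wild-type and R749H.

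The genes of the CCR4-NOT partner list were called about as often as other genes. Beside deadenylation genes this list holds the methyltransferase gene PRMT1 and the cyclin gene CCND1. Of 18 genes of this list 16 were tested, and 1 was higher and 2 were lower in R749H, or 18.8% called beside 23.9% of all tested genes, with a median log2 difference of 0.06 beside -0.07 for all tested genes. CNOT2, a scaffold subunit of CCR4-NOT, was lower, with a log2 difference of -0.83 ± 0.21 (SE, adjusted p = 0.0105, limma) and PABPC4, a poly(A) binding protein, likewise with -0.68 ± 0.20 (SE, adjusted p = 0.0213, limma). CCND1, or cyclin D1, was the 1 gene called higher, by 0.75 ± 0.26 (SE, adjusted p = 0.0421, limma), so no deadenylation gene of the list was called higher. The deadenylases that the BTG domain binds did not pass the test, with log2 differences of -0.78 ± 0.50 (SE) for CNOT7 and 0.12 ± 0.46 for CNOT8. PRMT1, the partner of BTG1 and BTG2, had 617 RPM ± 89.2 in wild-type and 633 RPM ± 109 in R749H. CNOT2 was called under all 14 alternatives run for this list. PABPC4 was not called without wild-type replicate 2, R749H replicate 2 or R749H replicate 4 (adjusted p up to 0.0934, limma). CCND1 was not called in 8 of the 14, with adjusted p up to 0.232, namely under the replicate block, without scaling factors, and without any one of wild-type replicates 2 to 5 or R749H replicates 2 and 4.

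BTG2 belongs to the targets of p53 and to the immediate early genes, and both lists were higher in R749H in part. Of 20 p53 targets 19 were tested, 11 were higher and 0 lower, beside 10.9% higher and 12.9% lower of all tested genes, and the median log2 difference was 0.90 beside -0.07. PLK3, a stress kinase, rose by 2.48 ± 0.29 (SE), the oxidoreductase gene TP53I3 by 2.33 ± 0.35, the cyclin-dependent kinase inhibitor CDKN1A by 2.16 ± 0.24 and the ferredoxin reductase gene FDXR by 1.55 ± 0.20. Their levels in R749H were 17.6, 12.3, 426 and 189 RPM. Among tested p53 targets not called, MDM2 (-0.32), CCNG1 (-0.53), SESN2 (-0.36) and BAX (-0.13) had negative log2 differences. Those of GADD45A, BBC3, RRM2B and TP53INP1 were positive. Of 18 immediate early genes 13 were tested, 9 were higher and 0 lower, against the same 10.9% and 12.9% of all tested genes, and the median was 1.68 against -0.07. The filter on low counts could admit a gene on its R749H reads alone. FOS had 4.54 RPM in R749H against 0.67 in wild-type. Not tested were MYC (0.455 RPM in R749H, 1.77 in wild-type), KLF6 (1.32, 1.86), EGR2 (0.55, 0.115), EGR3 (2.15, 0.961) and IER2 (3.65, 0.578). Of the tested genes, the highest differences were those of FOSB with 3.08 ± 0.29 (SE), EGR1 with 2.71 ± 0.41, FOS with 2.69 ± 0.70 and FOSL1 with 2.64 ± 0.38, all of them transcription factors. The difference of BTG2, 1.67, was above the median of the p53 targets and next to that of the immediate early genes. Both lists were chosen with earlier results of these data known, and a link of BTG2 to either was not tested. Without scaling factors 10 p53 targets were higher and 2 lower, and 6 immediate early genes were higher and 1 lower. With the replicate block, as without R749H replicate 1, 12 p53 targets were higher and 1 lower.

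**Figure D5:**
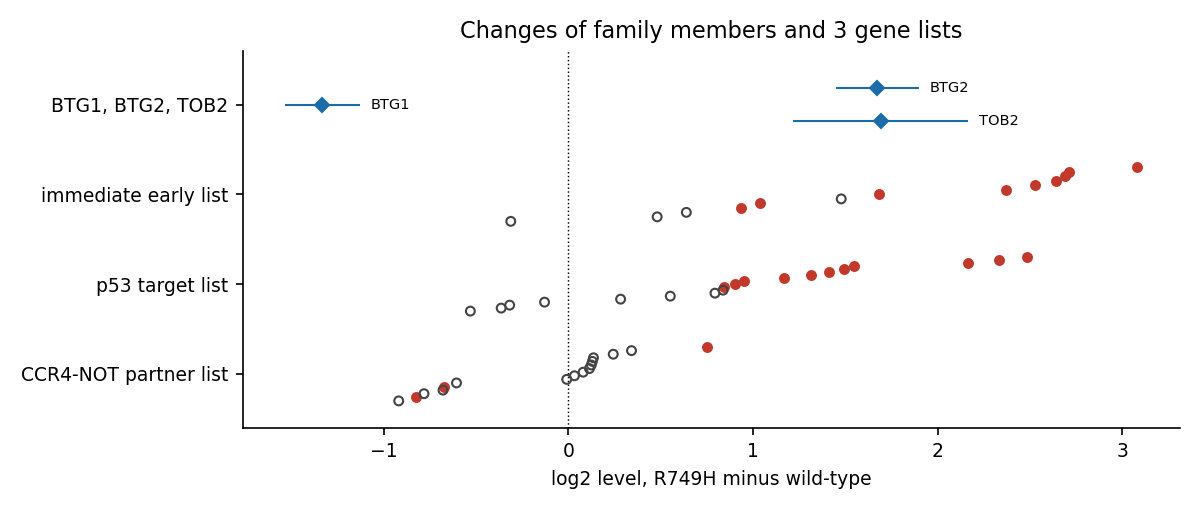
Log2 level in R749H minus wild-type for BTG1, BTG2 and TOB2 (diamonds with SE) and for the tested genes of 3 lists (circles, filled where the adjusted p was under 0.05). BTG2 and TOB2 lie at 1.67 and 1.69 and BTG1 at -1.33, and the called genes of the p53 and immediate early lists all lie above 0.

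The genes whose levels ran most like each member over the 9 libraries were taken by the smallest root mean square difference of centered log2 levels among 7875 genes. For BTG1 these were RHBDL3 (0.165), PELP1 (0.204) and TUBB2B (0.208). For BTG2 they were FAM83D (0.149), GTPBP1 (0.180) and MXRA7 (0.183). TOB2 ran most like KDELC1 (0.363), HLA-B (0.376) and PCNA (0.395), and TOB1 like ZNF526 (0.760), SFI1 (0.794) and MAMDC4 (0.832). The median difference from the candidates was 0.808 for BTG1, 0.952 for BTG2, 1.13 for TOB2 and 1.43 for TOB1. No gene came as near to either TOB gene as the named ones did to BTG1 and BTG2. TOB1 and TOB2 had 27 and 151 reads in all, against 2944 for BTG1 and 960 for BTG2. The part of counting spread in their larger distances was not tested.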

How the data were processed

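The signal values deposited by the authors are reads per 3' end, brought by them to a common total of 7 M poly(A) reads in each replicate. Per the paper, the authors removed 4 random nt and leading Ts, shortened reads to a maximum of 77 nt, aligned these to hg19 with bowtie (the submitters' processing notes name Bowtie2 2.3.2) without mismatches in the leading 30 nt, required non-templated As, and gave each end to the CCDS stop codon that lay upstream within 5 kb. Division of the values by the smallest step of a library gave whole reads (within 0.1) for 99.9973% to 100% of the values. Reads were summed per gene.

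Expression was fitted over all genes with limma 3.58.1 on log2 RPM (TMM factors and filterByExpr of edgeR 4.0.16, prior of 0.5 reads), since the deposited values are scaled. The 3' end shares were fitted with limma on log2 odds with 0.5 reads added, over genes that averaged 20 or more reads in a library. A read in every library was also required, a condition added after the data were seen because genes with no reads in a group gave false calls. Adjustment of p followed Benjamini and Hochberg, with a threshold of 0.05. Paralog ratios were compared by exact permutation over all assignments of the libraries. The fits were tried on simulated data. The replicates are biological replicates per the study, and nothing more says that they are separate cultures, so p-values measure the spread between these libraries.

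The members and lists were chosen with earlier results of these data known. Named were the members, the 5 genes most like BTG3 in presence, the 3 genes nearest in pattern to each other member, the 3 nearest neighbors of BTG3 on either side, and at most 4 called genes per list and direction. CNOT7, CNOT8, PRMT1, HSPA13, CHIT1, ZBED6, WFIKKN2 and the cell type markers were named outside this rule, after their values were seen. So were the p53 targets given as not called and the immediate early genes given as not tested. Alternatives were RLE factors, no factors, no filter, a prior of 0.1, DESeq2 1.42.0, edgeR's quasi-likelihood test on recovered reads, thinned libraries, other definitions of the shares, a replicate block and each library left out. Added after seeing the data were no minimum for the most used end and no factors for the lists. The pooled tables were not used, and 4 eNETseq samples of 13 were not analysed here.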

Additional observations from a re-analysis of the deposited data

Results flagged for a closer look

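In 4 of 34 groups examined, a single library lay far from the rest of its group. Chance gives about 1 in 20 for values without ties. The TOB1 and TOB2 percentages below are tied among the other libraries, so this rate does not apply to them. BTG1 was at 113 RPM in wild-type replicate 5, above 61.7 to 73.9 RPM in the other wild-type libraries, and without it BTG1 differed by -1.19. TOB2 was at 4.16 RPM in wild-type replicate 1, above 0.835 to 1.63 RPM in the others. TOB1 had 90.9% of its 11 reads at +752 in wild-type replicate 4 and 100% in the other wild-type libraries with reads. TOB2 had 68.4% of its 19 reads at +2816 in R749H replicate 4 and 66.7% in the other 3 R749H libraries, a gap smaller than 1 read.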

How the results depend on the processing

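The log2 differences of BTG1 (-1.65 to -1.19), BTG2 (1.36 to 1.76) and TOB2 (1.38 to 2.01, adjusted p up to 0.0487 without scaling factors) kept their direction and stayed past the threshold under 17, 17 and 16 alternatives. TOB2 could not be tested in thinned libraries. Same-numbered replicates did not deviate together (r of -0.071, 0.051, 0.016 and -0.05). With a replicate block over replicates 1 to 4 the differences were -1.19, 1.76 and 1.67, and 2095 genes were called against 2215 without it. The difference of the BTG1 to BTG2 ratio was -3.16 to -2.94 over 11 alternatives and that of TOB1 to TOB2 -2.93 to -1.54 (exact permutation p of 0.0571 to 0.25). The downstream share of BTG1, which passed no test, changed sign with 0.1 reads added (-0.39), with the replicate block (-0.03) and as mean position (-1.97 nt), and ranged from -0.28 to 0.85 with single libraries left out. The share of its most used end ranged from -0.16 to 0.37 in the same way. With single libraries left out, 1 to 4 CCR4-NOT partners, 10 to 13 p53 targets and 6 to 10 immediate early genes were called. Over all genes, 0 to 7 were called for the downstream share and 0 to 3 for the most used end. Depth limits TOB1 and TOB2 most, with 27 and 151 reads in all.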
